A study of Mus musculus with 6 samples.

Results

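The ATP-binding cassette (ABC) family was described in epithelial cells of the large intestine from germ-free mice with and without Hdac3. Its members were taken as the genes whose symbol is Abc followed by a subfamily letter from a to g and a number, on probe sets that name exactly 1 gene. With 1 probe set per gene, the one with the highest mean over the arrays, the rule gave 48 of the 19533 genes measured: 16 of subfamily A, 9 of B, 10 of C, 3 of D, 1 of E, 3 of F and 6 of G. Of these, 47 have a single probe set and Abcb5 has more than 1.

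The 6 arrays came from germ-free C57BL/6 mice, 3 of the control genotype HDAC3FF, which carries floxed Hdac3 alleles, and 3 of HDAC3ΔIEC, the knockout restricted to intestinal epithelial cells. Live EpCAM+ cells had been isolated from the large intestine of each mouse, and total RNA was hybridised to 1 Affymetrix array per mouse. All 6 mice share the germ-free state and the strain. Neither age nor sex, nor the promoter that drives the deletion, is named in the labels.

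ABC proteins use the energy of ATP, bound at paired nucleotide-binding domains, to move substrates across membranes. In gut epithelium the apical pumps of subfamilies B, C and G return drugs, conjugates, bile pigments and sterols to the lumen, basolateral members of subfamily C export conjugates towards the blood, subfamily A moves lipids, and subfamily D serves peroxisomes and lysosomes. Subfamilies E and F have no membrane-spanning part and act on ribosomes and translation.

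Values are the authors' log2 signals, so a difference of 1 is a 2-fold change, and signals of different probe sets are not compared as exact levels. A place above or below the median gene, or among the brightest, is only a rough guide. Median signals of all genes lay between 5.30 and 5.35 on the 6 arrays. Hdac3, the targeted gene, read 6.96, 7.36 and 7.04 in HDAC3FF and 6.58, 6.22 and 6.00 in HDAC3ΔIEC, with no overlap, and the log2 fold change of -0.86 ± 0.17 (SE) missed the threshold (limma adjusted p = 0.0937). Which part of the transcript its probes cover was not examined, so this value is a weak check of the deletion. All 9 epithelial markers read above the median gene, with Epcam, the protein used for sorting, at -0.06 ± 0.10 and the chloride exchanger gene Slc26a3 and the keratin gene Krt8 at -0.44 ± 0.08 and 0.26 ± 0.08 (log2 fold change ± SE). Of the measured markers of other cells, 7 of 8 myeloid, 6 of 6 T and NK cell, 5 of 5 B and plasma cell, 6 of 8 fibroblast and muscle and 5 of 5 endothelial genes read below the median gene, as did Alas2 of red cells (-0.11 ± 0.10). The 2 brightest of each were Cd68 (0.51 ± 0.13) and C1qb (0.07 ± 0.10), Cd3e (-0.22 ± 0.09) and Cd4 (0.12 ± 0.08), Cd79b (-0.16 ± 0.16) and Mzb1 (0.23 ± 0.11), Col1a1 (-0.06 ± 0.09) and Dcn (-0.21 ± 0.21), and Cldn5 (0.10 ± 0.09) and Cdh5 (-0.00 ± 0.11). No gene of these lists passed, and their part in the members' values was not tested.

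Abcd3, which encodes the peroxisomal membrane protein PMP70, a half-transporter that carries fatty acyl-CoA esters and bile acid precursors into peroxisomes, was the single member called at an adjusted p under 0.05 (limma, Benjamini-Hochberg over all 19533 genes), and it was higher in HDAC3ΔIEC. It read 9.82, 9.90 and 9.85 on the HDAC3FF arrays and 10.34, 10.52 and 10.68 on the HDAC3ΔIEC arrays. The controls lay within 0.08 of each other, and the lowest HDAC3ΔIEC array stood 0.44 above the highest control. The means were 9.86 ± 0.04 and 10.51 ± 0.17 (SD, n = 3 each), a 1.58-fold rise, with a log2 fold change of 0.66 ± 0.10 (SE) and a limma adjusted p = 0.0489. In bulk samples, a change in the share of a cell type and a change in RNA per cell cannot be told apart.

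Across the whole array 0.701% of genes were called, 0.369% higher and 0.333% lower, beside 1 of 48 members higher and none lower. At an unadjusted p under 0.05, 7 members were higher and 2 lower, against 11.2% of all genes, of which 1051 were higher and 1141 lower. The Abcd3 call lies close to the threshold, and it ended with quantile normalization (limma adjusted p = 0.0862), with an intensity trend (0.0627) and with adjustment over all probe sets (0.0609). Without HDAC3FF replicate 1 or 2, or HDAC3ΔIEC replicate 1, 2 or 3, no member was called, and Abcd3 had limma adjusted p-values of 0.183, 0.137, 0.0749, 0.216 and 0.109. Without HDAC3FF replicate 3, 2 members were called, Abcd3 (limma adjusted p = 0.0473) and Abcb1a. In that fit 430 of all genes were called, against 137 with all arrays.

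**Figure D1:**
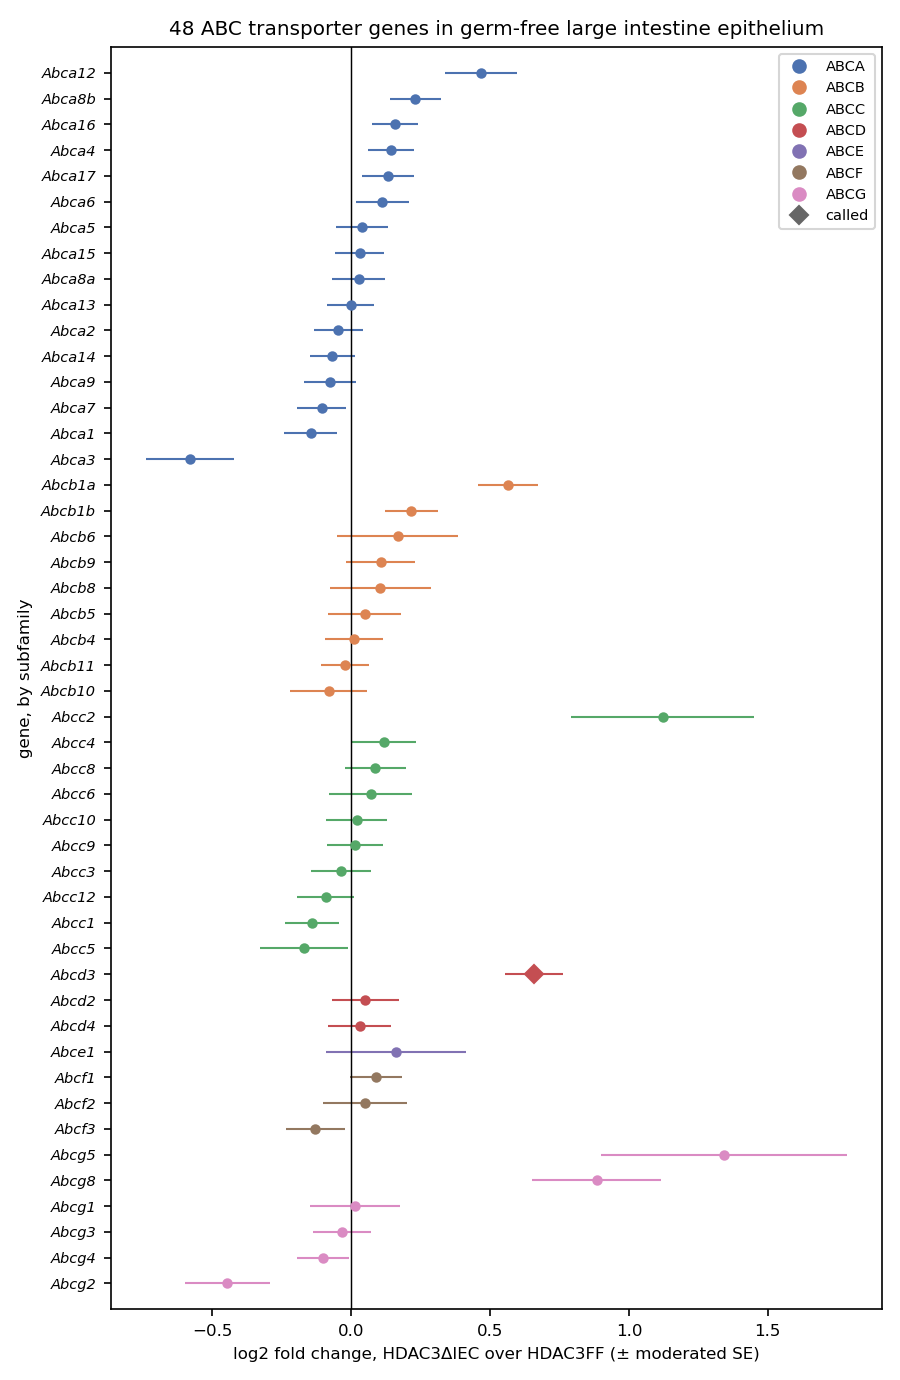
Log2 fold change of each of the 48 ABC genes, HDAC3ΔIEC over HDAC3FF, with limma's moderated standard error as the bar, coloured by subfamily; the diamond marks Abcd3, the called member. Most members sit within 0.25 of 0, while Abcg5, Abcc2, Abcg8, Abcd3, Abcb1a and Abca12 extend to the right and Abca3 and Abcg2 to the left.

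Upstream sequences were read from RefSeq on build GRCm38.p6 and are written 5′ to 3′ up to the base before the annotated start site. Of the 48 members, 38 have a window in that table. Abcd3 (chr3:121815303-121815552, minus strand, the first of 2 annotated starts) and Abcb1a (chr5:8566841-8567090, plus strand) are shown as the members with the smallest p, with CG pairs in capitals.
Abcd3: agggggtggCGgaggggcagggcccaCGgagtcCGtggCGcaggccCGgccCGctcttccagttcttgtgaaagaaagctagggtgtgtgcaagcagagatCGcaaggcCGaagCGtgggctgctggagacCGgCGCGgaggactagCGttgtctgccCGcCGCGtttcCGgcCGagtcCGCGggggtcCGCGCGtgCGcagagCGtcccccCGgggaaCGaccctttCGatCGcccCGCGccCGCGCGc
Abcb1a: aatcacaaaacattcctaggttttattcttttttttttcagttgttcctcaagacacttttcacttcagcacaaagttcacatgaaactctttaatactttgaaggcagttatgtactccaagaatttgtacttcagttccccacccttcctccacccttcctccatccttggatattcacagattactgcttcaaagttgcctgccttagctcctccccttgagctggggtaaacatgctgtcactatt
The Abcd3 stretch has a GC content of 72% and 34 CG pairs in 250 bases, against a median of 6 pairs over all 32851 windows of that length and 12 over the 45 windows of members. The Abcb1a stretch has a GC content of 40.4% and 0 CG pairs, the 1 member window of 45 without any, whereas 92.1% of all windows hold at least 1.

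Of the other measured members of subfamily D, Abcd2, a peroxisomal carrier of very long-chain fatty acyl groups, had a log2 fold change of 0.05 ± 0.12 at a mean signal of 3.94, and Abcd4, which acts in lysosomal cobalamin export, had 0.03 ± 0.11 (SE). Both had overlapping groups. Whether they differ from Abcd3 in their response was not tested.

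Beside Abcd3, 11 of 12 listed peroxisomal genes were measured, and 1 was called, lower. The list holds genes of peroxisomal oxidation and the peroxisome assembly genes Pex3 and Pex19. Crot, the peroxisomal carnitine octanoyltransferase, which hands shortened acyl groups to carnitine, fell from 8.89 ± 0.06 to 8.26 ± 0.06 (SD, n = 3 each; limma adjusted p = 0.0311). Ehhadh, the bifunctional enzyme of peroxisomal beta-oxidation, read 8.31, 8.16 and 8.53 in HDAC3FF and 9.40, 9.42 and 8.93 in HDAC3ΔIEC, and its log2 fold change of 0.92 ± 0.16 (SE) missed the threshold (limma adjusted p = 0.0652). At an unadjusted p under 0.05, 4 of the 11 were higher and 2, Crot and Pex3, lower (54.5% together, against 11.2% of all genes). Of the 11, 10 read above the median gene, and among all genes above it the share was 17.7%. The median over these 11 was 0.19, against 0.01 over all genes.

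Abcb1a showed the next smallest p. It encodes one of the rodent P-glycoproteins, the apical pump for a wide range of lipophilic drugs and toxins. It read 11.06, 11.12 and 11.36 in HDAC3FF and 11.63, 11.80 and 11.81 in HDAC3ΔIEC. Every HDAC3ΔIEC array stood above every control, by at least 0.27. The means were 11.18 ± 0.16 and 11.75 ± 0.10 (SD, n = 3 each). The log2 fold change of 0.57 ± 0.11 (SE), a 1.48-fold difference, did not pass (limma adjusted p = 0.0823). Abcb1a passed in 2 of 14 alternatives. With array weights, which keep all 6 arrays, its log2 fold change was 0.60 (limma adjusted p = 0.0348). Without HDAC3FF replicate 3 it was 0.66 (limma adjusted p = 0.0286). That was the 1 of 6 fits with an array left out in which Abcb1a passed, and over the 6 the limma adjusted p reached 0.315.

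Abcb1b, the close relative of Abcb1a, read 4.47, 4.41 and 4.49 in HDAC3FF and 4.51, 4.76 and 4.75 in HDAC3ΔIEC. The groups did not overlap, but HDAC3ΔIEC replicate 1 lay only 0.02 above the highest control, and the log2 fold change of 0.22 ± 0.10 (SE) missed the threshold (limma adjusted p = 0.470). The 2 genes are close paralogues, and whether their probe sets share signal was not tested. Abcb4, their neighbour, which moves phosphatidylcholine into bile, had 0.01 ± 0.10 at a mean signal of 3.87.

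The other 6 members of subfamily B had overlapping groups and log2 fold changes from -0.08 to 0.17. The outermost were Abcb6, a porphyrin transporter (0.17 ± 0.22, SE), and Abcb10, a mitochondrial carrier of erythroid haem synthesis (-0.08 ± 0.14). Abcb8 of the mitochondrial inner membrane (0.10 ± 0.18), Abcb9, a lysosomal peptide transporter (0.11 ± 0.12), Abcb5 (0.05 ± 0.13) and Abcb11, the bile salt export pump of hepatocytes (-0.02 ± 0.09), lay between them. For Abcb6 the 3 controls spanned 6.30 to 7.10, wider than the difference between the groups. The median over the 9 members of subfamily B was 0.10.

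Of 13 measured genes of haem and iron-sulphur synthesis, which supply or use what mitochondrial ABCB proteins carry, none passed. At an unadjusted p under 0.05, 2 of the 13 (15.4%) were higher and none lower, near the 11.2% of all genes and the 17.7% of genes above the median gene. These were Alas1, the first enzyme of haem synthesis (0.57 ± 0.11, SE, limma adjusted p = 0.0793), and Alad, the next (0.46 ± 0.13, limma adjusted p = 0.228). The list's median was 0.05.

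Tap1 and Tap2, the peptide transporter of antigen presentation, belong to subfamily B by structure but carry other symbols. Tap2 read 6.16, 6.18 and 6.37 in HDAC3FF and 5.77, 5.99 and 6.07 in HDAC3ΔIEC, all 3 below all controls. Its log2 fold change of -0.29 ± 0.11 (SE) missed the threshold (limma adjusted p = 0.379), nor did that of Tap1, -0.31 ± 0.13 (limma adjusted p = 0.440), whose groups overlapped. Of 7 peptide-loading partners none passed; Erap1, a trimming peptidase of the endoplasmic reticulum, and Calr, calreticulin, had the smallest p, at -0.47 ± 0.18 and 0.17 ± 0.11. The partners' median was -0.11.

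In subfamily C, Abcc2 had the largest log2 fold change. It encodes MRP2, the apical exporter of glucuronide and glutathione conjugates and of bilirubin glucuronides. It read 5.18, 5.01 and 4.67 in HDAC3FF and 6.28, 6.65 and 5.29 in HDAC3ΔIEC. The groups did not overlap, but HDAC3ΔIEC replicate 3 lay only 0.11 above the highest control, and the other 2 lay more than 1 above it. The means were 4.95 ± 0.26 and 6.07 ± 0.70 (SD, n = 3 each), and the 2.18-fold difference, 1.12 ± 0.33 (SE) on the log2 scale, did not pass (limma adjusted p = 0.234). Without HDAC3ΔIEC replicate 3 it was 1.51 (limma adjusted p = 0.0608). That was the lowest adjusted p of the 6 fits with an array left out. None of them passed, and the highest was 0.545 (limma).

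The Abcc2 stretch (chr19:43782058-43782307, plus strand) is shown because MRP2 is known as a target of nuclear receptors. Capitals mark AGGTCA, the nuclear receptor half-site, and CCAAT, the CCAAT box, each searched on both strands.
Abcc2: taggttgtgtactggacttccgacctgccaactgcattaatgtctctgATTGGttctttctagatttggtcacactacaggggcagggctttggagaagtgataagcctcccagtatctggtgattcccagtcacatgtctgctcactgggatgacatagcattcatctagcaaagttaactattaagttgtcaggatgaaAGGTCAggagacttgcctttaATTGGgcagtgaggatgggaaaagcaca
It holds 1 half-site, at base 202 of 250, and 2 CCAAT boxes, both on the opposite strand as ATTGG, with no overlap between them. The half-site is found in 14% of all windows and 15.6% of member windows, and the CCAAT box in 33.8% and 28.9%. A match of letters is a description and not a binding site.

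The remaining 9 members of subfamily C had overlapping groups and log2 fold changes from -0.17 to 0.12. Abcc3, the basolateral counterpart MRP3, read 10.04, 10.27 and 9.96 in HDAC3FF and 10.11, 10.10 and 9.94 in HDAC3ΔIEC, a difference of -0.04 ± 0.11 (SE). The arrays of both genotypes were interleaved. Abcc4, which exports cyclic nucleotides and prostaglandins, had 0.12 ± 0.11, Abcc1, a broad conjugate pump, -0.14 ± 0.10, Abcc5 -0.17 ± 0.16, Abcc12 -0.09 ± 0.10, Abcc6 0.07 ± 0.15 and Abcc10 0.02 ± 0.11.

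Abcc8 and Abcc9, the sulphonylurea receptors that regulate ATP-sensitive potassium channels, had 0.09 ± 0.11 and 0.01 ± 0.10 (SE), at mean signals below the median gene. Of the channel pores, Kcnj8 had -0.46 ± 0.17 and Kcnj11 0.07 ± 0.12, and neither passed. Abcc8 is used by endocrine cells, and of 7 enteroendocrine markers none passed, with a median of 0.55. At an unadjusted p under 0.05, 3 of the 7 were higher and 1 lower (57.1% together, against 11.2% of all genes). The 2 brightest, the granin genes Chgb and Chga, had 0.58 ± 0.25 and 0.75 ± 0.30 with overlapping groups. The groups did not overlap for Neurod1 (1.21 ± 0.30), Scg2 (0.55 ± 0.13) and Pax6 (0.21 ± 0.12), with HDAC3ΔIEC above, and for Pcsk1 (-0.32 ± 0.10), with HDAC3ΔIEC below. These 4 of the 7 (57.1%), against 16.2% of all genes, were named after their values were seen. Cftr, the chloride channel of the same subfamily by structure, read 8.31, 8.37 and 6.88 in HDAC3FF and 7.39, 6.73 and 6.65 in HDAC3ΔIEC. Its control replicate 3 lay among the HDAC3ΔIEC arrays, and the log2 fold change of -0.92 ± 0.41 did not pass (limma adjusted p = 0.464). Without that array it was -1.41 and passed (limma adjusted p = 0.0292). That was the 1 of 6 fits with an array left out in which Cftr passed, and over the 6 the limma adjusted p reached 0.774.

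Abcg5, with the largest log2 fold change of the family, and Abcg8, which ranked behind Abcc2, are the half-transporters that pair to send cholesterol and plant sterols back to the lumen. Abcg5 read 4.89, 5.54 and 5.57 in HDAC3FF and 7.20, 7.25 and 5.59 in HDAC3ΔIEC. HDAC3ΔIEC replicates 1 and 2 stood far above the controls, while replicate 3 lay 0.01 above the highest control. The means were 5.33 ± 0.39 and 6.68 ± 0.94 (SD, n = 3 each), and the 2.54-fold difference, 1.34 ± 0.44 (SE) on the log2 scale, did not pass (limma adjusted p = 0.291).

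Abcg8 had the same order of HDAC3ΔIEC arrays, with 5.21, 5.14 and 5.47 in HDAC3FF and 6.29, 6.57 and 5.63 in HDAC3ΔIEC. Replicate 3 was again the lowest, 0.15 above the highest control. The 1.84-fold difference, 0.88 ± 0.23 (SE) on the log2 scale between 5.28 ± 0.17 and 6.16 ± 0.48 (SD, n = 3 each), did not pass (limma adjusted p = 0.177). Without HDAC3ΔIEC replicate 3 the log2 fold changes of Abcg5 and Abcg8 were 1.89 and 1.15 (limma adjusted p = 0.0565 and 0.0619). For both genes these were the lowest adjusted p-values of the 6 fits with an array left out. None of them passed, and the highest were 0.644 and 0.446 (limma).

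Abcg5 and Abcg8 lie head to head, and 109 bases separate their annotated starts (chr17:84683012-84683120, shown on the plus strand towards Abcg8; Abcg8 has 2 annotated starts, of which this is the one facing Abcg5). The stretch is shown because both genes begin at it and read highest on the same 2 arrays. Capitals mark AGATAA, the GATA factor motif, and TATAAA, the TATA box, searched on both strands.
Abcg5-Abcg8: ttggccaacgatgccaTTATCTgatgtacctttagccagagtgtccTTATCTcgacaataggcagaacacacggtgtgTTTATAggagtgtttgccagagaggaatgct
The GATA motif occurs 2 times, at bases 17 and 47, both times as TTATCT, and the TATA box once, at base 79, as TTTATA, so all 3 lie on the strand that reads towards Abcg5, and none overlaps another. AGATAA is found in 9.99% of all windows of 250 bases before a start and in 11.1% of member windows, those of Abca14, Abca16, Abcf2, Abcg5 and Abcg8. TATAAA is found in 12.4% and 11.1%. The windows of Abcg5 and Abcg8 share the 109 bases shown, so these matches were counted for each gene in the member shares.

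**Figure D2:**
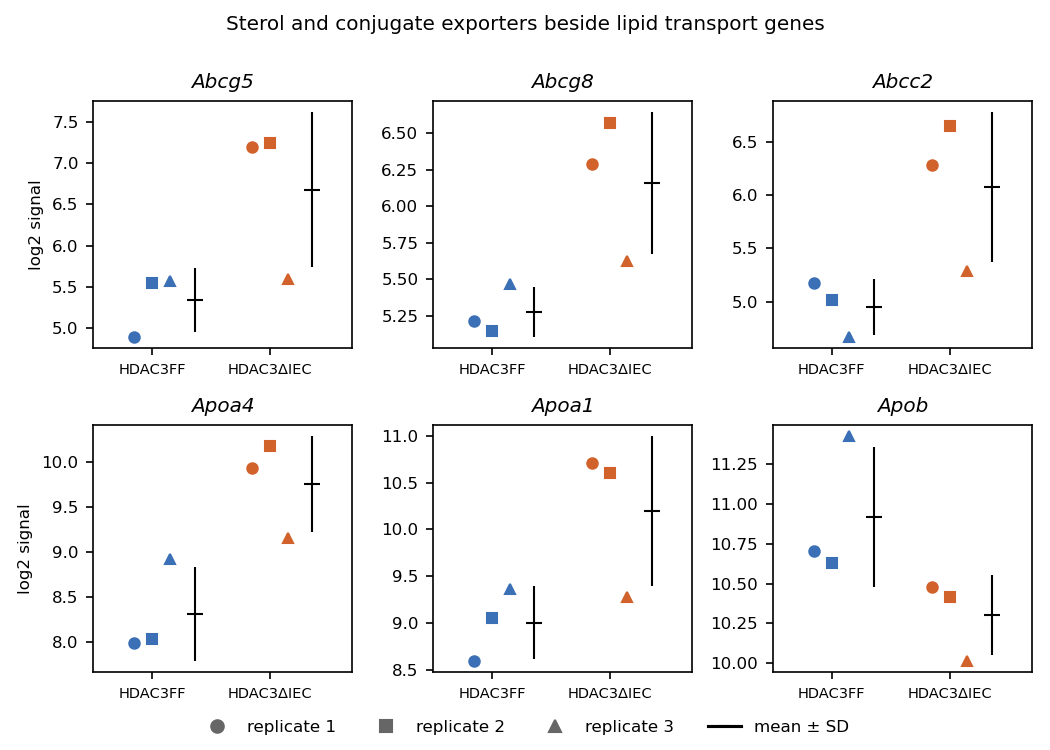
Log2 signals on each array of Abcg5, Abcg8 and Abcc2 (top) and of the lipid transport genes Apoa4, Apoa1 and Apob (bottom), HDAC3FF in blue and HDAC3ΔIEC in orange, with a symbol for each replicate and the mean ± SD (n = 3). In each panel HDAC3ΔIEC replicate 3 (triangle) is the lowest of its group, down to 5.59 for Abcg5 and 9.28 for Apoa1.

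Of 13 listed genes of sterol and lipid handling beside ABCA1 and the ABCG proteins, 11 were measured and none passed. Not all act in export, and the list includes the sterol importer gene Npc1l1. Apoa4, an apolipoprotein of intestinal lipoproteins, read 7.99, 8.03 and 8.92 in HDAC3FF and 9.93, 10.17 and 9.15 in HDAC3ΔIEC, a log2 fold change of 1.44 ± 0.33 (SE; adjusted p = 0.125 by limma). Apoa1, the acceptor of cholesterol from ABCA1, had 1.20 ± 0.39 (limma adjusted p = 0.282) with overlapping groups. Apob, the structural protein of chylomicrons, had the opposite sign. It read 10.70, 10.63 and 11.42 in HDAC3FF and 10.48, 10.41 and 10.01 in HDAC3ΔIEC, all below the controls, a log2 fold change of -0.62 ± 0.23 (limma adjusted p = 0.362). HDAC3ΔIEC replicate 3 was the lowest HDAC3ΔIEC array for all 3 genes, as for Abcg5, Abcg8 and Abcc2. The part of that array in these values was not tested beyond leaving it out. The list's median was 0.07, with 2 genes higher and 2 lower at an unadjusted p under 0.05 (36.4% together, against 11.2% of all genes). Of the 11, 9 read above the median gene, and among all genes above it the share was 17.7%.

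Abcg2, the breast cancer resistance protein, an apical pump for urate, porphyrins and drugs, had a log2 fold change of the other sign. It read 10.29, 10.07 and 10.68 in HDAC3FF and 9.82, 9.97 and 9.91 in HDAC3ΔIEC. All 3 HDAC3ΔIEC arrays lay below the controls, by at least 0.10, and the controls spread over 0.61. The log2 fold change of -0.45 ± 0.15 (SE) between 10.35 ± 0.31 and 9.90 ± 0.07 (SD, n = 3 each) did not pass (limma adjusted p = 0.318).

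The rest of subfamily G had overlapping groups. Abcg1, which passes cholesterol to lipoproteins, had 0.01 ± 0.16, Abcg4, its relative of brain, -0.10 ± 0.09, and Abcg3, a rodent gene, -0.03 ± 0.10 (SE). Abcg1 ranged from 5.51 to 6.17 in the controls and only from 5.87 to 5.91 in HDAC3ΔIEC. The median over the 6 members of subfamily G was -0.01.

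**Figure D3:**
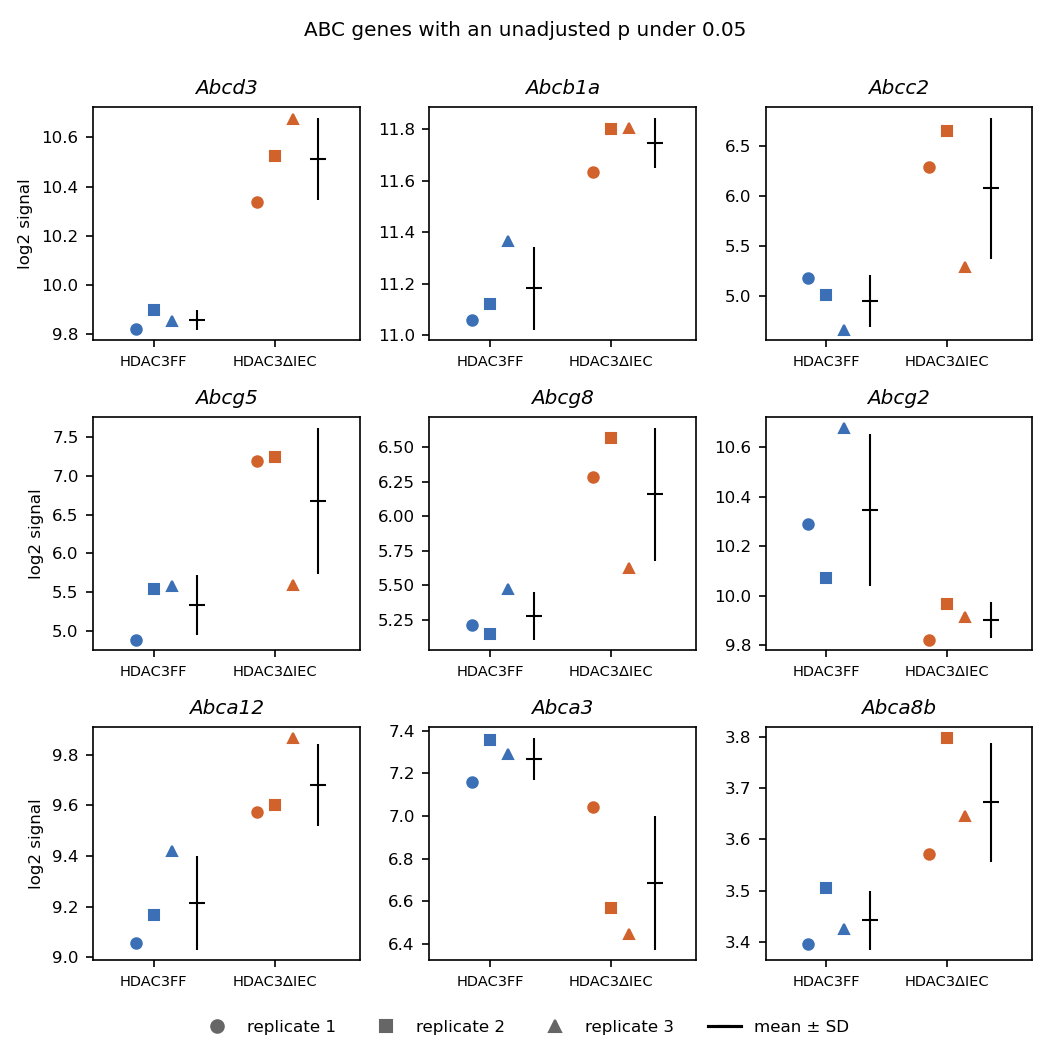
Log2 signals on each array of the 9 members with an unadjusted p under 0.05, HDAC3FF in blue and HDAC3ΔIEC in orange, with the mean ± SD (n = 3); each panel has its own axis. The groups do not overlap in any panel, with the widest gap for Abcd3 (0.44) and the narrowest for Abcg5 (0.01). The 9 were picked by p on these same arrays, so their lack of overlap is no test. Of all genes, 16.2% had groups that did not overlap.

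In subfamily A, 3 of 16 members read above the median gene. Abca12, which loads glucosylceramides into lamellar granules of skin, read 9.06, 9.17 and 9.42 in HDAC3FF and 9.57, 9.60 and 9.87 in HDAC3ΔIEC. The groups did not overlap, and the log2 fold change of 0.47 ± 0.13 (SE), a 1.38-fold difference, did not pass (limma adjusted p = 0.200).

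Abca3, a phospholipid transporter of lung lamellar bodies, was the member with the most negative log2 fold change. It read 7.16, 7.36 and 7.29 in HDAC3FF and 7.04, 6.57 and 6.45 in HDAC3ΔIEC. All 3 HDAC3ΔIEC arrays lay below the controls, replicate 1 by only 0.12, and the difference of -0.58 ± 0.16 (SE) missed the threshold (limma adjusted p = 0.197). The third, Abca7, a phospholipid transporter related to ABCA1, had -0.11 ± 0.09 with overlapping groups.

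The other 13 members of subfamily A read below the median gene, where a signal may be close to background, which the deposited values do not mark. Among them Abca8b read 3.39, 3.51 and 3.42 in HDAC3FF and 3.57, 3.80 and 3.65 in HDAC3ΔIEC, with no overlap and a log2 fold change of 0.23 ± 0.09 (SE; adjusted p = 0.408 by limma). Abca16 (0.16 ± 0.08) and Abca4, the retinal flippase (0.14 ± 0.08), also had no overlap. Abca1, the exporter of cholesterol to apolipoprotein A-I, read 4.39, 4.56 and 4.66 in HDAC3FF and 4.35, 4.43 and 4.39 in HDAC3ΔIEC, a log2 fold change of -0.15 ± 0.09 with overlapping groups. The remaining 9, namely Abca2, Abca5, Abca6, Abca8a, Abca9, Abca13, Abca14, Abca15 and Abca17, had overlapping groups and lay between -0.08 and 0.13.

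Subfamilies E and F read above the median gene throughout. Abce1, the ribosome recycling factor, read 8.31, 8.30 and 7.38 in HDAC3FF and 7.97, 8.18 and 8.32 in HDAC3ΔIEC, a log2 fold change of 0.16 ± 0.25 (SE; adjusted p = 0.904 by limma). Control replicate 3 was the lowest array. Abcf1, which takes part in translation initiation, read 7.92, 7.95 and 7.72 in HDAC3FF and 7.92, 7.92 and 8.03 in HDAC3ΔIEC (0.09 ± 0.09). The other members of subfamily F were Abcf2, at 0.05 ± 0.15, and Abcf3, at -0.13 ± 0.11, and the groups overlapped for all 3. Of 10 listed translation partners 8 were measured and none passed, with the release factor gene Etf1 at 0.32 ± 0.14 and the ribosome rescue gene Pelo at 0.24 ± 0.11, and a median of 0.08.

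Of the 16 listed transcription factors that regulate ABC genes, 15 were measured and none passed. Only Nr1i2, higher, and Nr1h3, lower, had an unadjusted p under 0.05 (13.3% together, against 11.2% of all genes). All 15 read above the median gene, and among all genes above it the share was 17.7%. Full separation of the 2 genotypes was also limited to these 2 factors (13.3%). That share was 16.2% over the whole array and 19.8% among genes above the median gene. Nr1i2, the xenobiotic receptor PXR, known as a regulator of P-glycoprotein and MRP2, read 7.86, 7.82 and 8.09 in HDAC3FF and 8.48, 8.62 and 8.26 in HDAC3ΔIEC. All HDAC3ΔIEC arrays lay above the controls, and the log2 fold change of 0.53 ± 0.12 (SE) missed the threshold (limma adjusted p = 0.128). Nr1h3, the sterol receptor LXR alpha, known to drive Abca1, Abcg5 and Abcg8, read 5.87, 6.08 and 5.76 in HDAC3FF and 5.42, 5.24 and 5.58 in HDAC3ΔIEC, all below the controls, with a log2 fold change of -0.49 ± 0.12 (limma adjusted p = 0.165). The list's median was 0.07.

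Of 13 listed genes that work beside ABC pumps, none passed. They are carriers that bring drugs, conjugates and bile acids to the pumps or share their membranes, and the scaffold genes Pdzk1 and Slc9a3r1. At an unadjusted p under 0.05, 1 was higher and 3 lower (30.8% together, against 11.2% of all genes). Of the 13, 9 read above the median gene, and among all genes above it the share was 17.7%. Slc10a2, the apical bile acid importer, read 10.85, 10.26 and 11.19 in HDAC3FF and 9.74, 8.92 and 8.75 in HDAC3ΔIEC, a log2 fold change of -1.63 ± 0.31 (SE; adjusted p = 0.0807 by limma). Slc51b, a subunit of the basolateral bile acid exporter, had 0.76 ± 0.16 (limma adjusted p = 0.107). Both had groups that did not overlap. The list's median was -0.07.

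Across the family, 31 members had positive and 17 negative log2 fold changes, with a median of 0.03 against 0.01 over all genes. The arrays of the 2 genotypes were fully separated for 12 of 48 members (25%), 10 with HDAC3ΔIEC above and 2 below, against 16.2% of all genes, of which 8.45% were above and 7.7% below. An unadjusted p under 0.05 was found for 9 members (18.8%), against 11.2% of all genes, and an absolute log2 fold change of at least 0.5 for 6 members (12.5%), against 4.67%. Among the 24 members above the median gene, 8 did not overlap (33.3%), against 19.8% of all genes above it. These shares are descriptions of a list chosen with results of these data known.

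**Figure D4:**
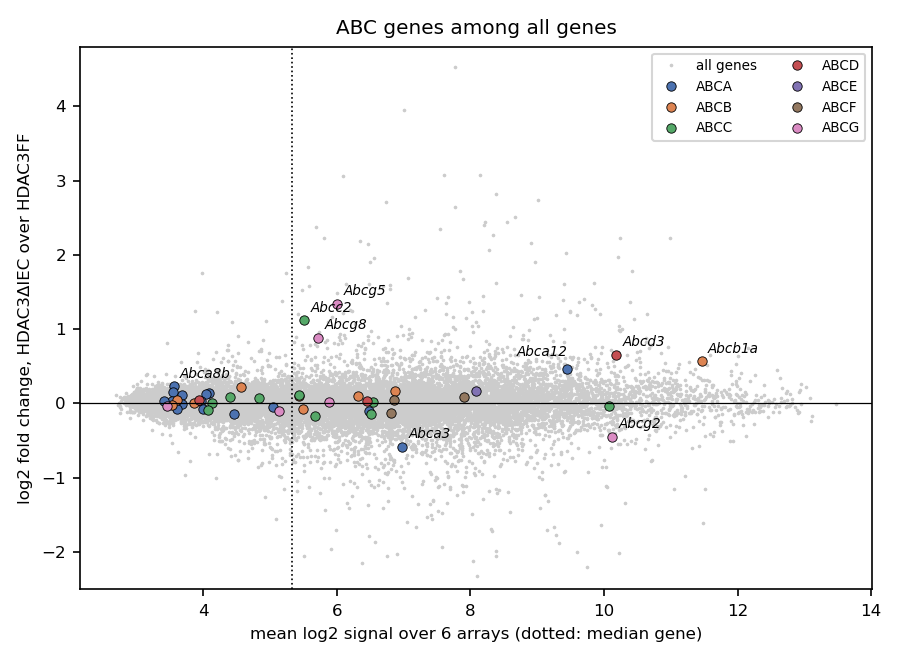
Log2 fold change, HDAC3ΔIEC over HDAC3FF, against the mean log2 signal over 6 arrays for all 19533 genes (grey) and the 48 ABC genes (coloured by subfamily); the dotted line marks the median gene. The 24 members left of the line stay between -0.15 and 0.23, and the larger differences, up to 1.34 for Abcg5, lie to its right.

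Of the 48 members, 15 lie in 5 runs of neighbouring protein-coding genes, by the order in RefSeq. Abca8b, Abca8a, Abca9, Abca6 and Abca5 form a run of 5 on chromosome 11, with log2 fold changes from -0.08 to 0.23. Abca14, Abca15 and Abca16 are adjacent on chromosome 7 and spanned -0.07 to 0.16, and Abcb1a, Abcb1b and Abcb4 on chromosome 5 spanned 0.01 to 0.57. Abca3 and Abca17, neighbours on chromosome 17, had values of opposite sign, -0.58 and 0.13. Abcg5 and Abcg8 were the 1 run of these 5 in which every gene had a log2 fold change above 0.5.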

How the data were processed

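RNA of sorted epithelial cells from 6 mice was measured on 1 Affymetrix array per mouse. The authors deposited log2 signals for each probe set. The log2 scale is read from the range of the values, the submitters' processing notes name Affymetrix Power Tools without settings, and the values were used unchanged.

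Of 24939 probe sets, 21105 name 1 gene in the platform's annotation. HDAC3ΔIEC was set against HDAC3FF with limma 3.58.1 in R 4.3.3 (two-sided, no covariate, Benjamini-Hochberg over all 19533 genes, calls at an adjusted p under 0.05). The code was tested on simulated data. Any member could be named, with array values for those with an unadjusted p under 0.05 and the brightest of each subfamily. From other lists, called genes or the 2 with the smallest p were named, and from lists of other cells the 2 brightest. Epcam, Apob, Neurod1, Scg2, Pax6 and Pcsk1, and array values or ranges of Abcb1b, Abcb6, Abca1 and Abcg1, were added after their values were seen, as was Ehhadh. The members and lists were chosen with earlier results of these data known. Promoter windows came from RefSeq on GRCm38.p6, searched over 250 bases before each start. Leaving out arrays and other normalizations, filters and fits were tried as alternatives. With 3 arrays a group, each p-value sets a group difference against the spread between mice, which limma moderates over all genes. Figures were drawn with matplotlib 3.10.9 in Python 3.11.15.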

Additional observations from a re-analysis of the deposited data

How the results depend on the processing

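Across 14 alternatives, the 9 ABC genes with an unadjusted p under 0.05 and Tap1, Tap2 and Cftr kept their direction, and 155 of 167 values stayed on their side of the threshold. The 9 genes were picked by p on these same arrays, and their groups do not overlap. Leaving out 1 array therefore could not reverse them, and their kept direction is no test. Abcd3 was called in 5 of the 14, with limma adjusted p-values from 0.0328 to 0.216 over all of them. The count of members called higher, 1 with all arrays, was 0 with quantile normalization, 0 with an intensity trend, 0 with adjustment over all probe sets, 0 with the replicate number as a block, 2 with array weights, and 0 to 2 with an array left out; none was called lower in any alternative. Of all genes, 137 were called, against 357 with array weights, 90 with adjustment over all probe sets, 12 with the replicate block and 13 to 430 with an array left out. No pairing by replicate number was seen: the correlations of same-numbered deviations were -0.02, -0.07 and -0.20, and those of other pairs ran from -0.21 to 0.20. Deviations from a mean of 3 arrays constrain one another, so these values cannot decide whether the arrays were paired. The members' median log2 fold change ran from 0.01 to 0.05. Of the 48 members, 22 changed sign in at least 1 alternative, none of them beyond 0.17 in size with all arrays. Signals below background are not marked in the deposited values, so the 24 members under the median gene may be measured poorly.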
